A study of Homo sapiens with 4 samples.

Results

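The genes described here are 32 members of the MYC network and of ribosome biogenesis, chosen by name and Ensembl identifier from a list that pairs the 2. All 32 were among the 24916 genes of the deposited array table, and 31 passed a filter on dim signal that 15131 genes passed in all. RNA came from 4 lines of HCT116, an established human colon adenocarcinoma cell line, with 1 Affymetrix array per line. The CST5 group held clone 9 and clone 20, each a clonal line that stably expresses cystatin D, the CST5 product, which blocks cysteine proteases outside the cell. The control group held un-transfected cells (called untransfected here) and mock-transfected cells (called mock). The sources used here do not give whether mock is 1 clone or a pool, or which promoter drives the transgene. One free-text label speaks of clinical material, but the title and the cell line label of every sample name HCT116, and that was followed. Both CST5 lines were clones, so an effect of cystatin D and an effect of picking a clone cannot be told apart.

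MYC is a transcription factor that pairs with MAX and binds E-box motifs in promoters. MXD1 and MXI1 compete for MAX and repress from the same motifs. Among the best known outputs of MYC is the making of ribosomes: transcription of ribosomal RNA by RNA polymerase I, its folding, cutting and chemical modification in the nucleolus, and the assembly of the small and large subunits. MYC also raises enzymes for polyamine and nucleotide synthesis, glycolysis and iron uptake. In colon carcinoma cells MYC is itself a classic target of the Wnt and beta-catenin pathway.

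Differences between the CST5 clones and the controls were small for these genes, at most 1.39-fold, and none of the 31 passed an adjusted p of 0.05 in limma. Of all tested genes, 0.0132% passed. At an unadjusted p under 0.05, 2 members were lower in the clones, NAMPT and UTP20, and 1 was higher, PPAN. These are 6.45% and 3.23% of the members, against a background of 6.62% lower and 6.91% higher among all tested genes. The count of members at that threshold is therefore near the background. With either control left out fewer members passed, and so did a smaller share of all tested genes. Without mock the log2 differences of NAMPT, UTP20 and PPAN were -0.47, -0.28 and 0.36. Without untransfected they were -0.47, -0.47 and 0.40. The mean of the clones lay below the mean of the controls for 26 of the 31, against 51.1% of all tested genes. Both clones lay below both controls for 13 members (41.9%, background 25.1%) and above both for 4 (12.9%, background 23.3%). The members are bright, and bright genes lay lower in the clones, as described below. How much of this excess goes with signal level was not tested. With the dim-signal filter raised to the 60th percentile, 30 members were tested, 13 lower (background 32.011%) and 3 higher (17.4%). The mean of the clones was lower for 26 of these 30, against 61.3% of the genes tested there. The split of 13 and 4 became 6 lower and 4 higher with quantile normalization, where the background was 21.4% and 23.5% of all tested genes. Cyclic loess gave 5 and 4 (background 22.7% and 22.6%), and centring arrays on their medians gave 23 and 1 (background 39.4% and 13.7%). With 1 array left out, the members that lay lower with no overlap numbered 15 without clone 9 (background 41.8%) and 24 without clone 20 (39.5%). They numbered 25 without untransfected (36.5%) and 13 without mock (35.0%). Those that lay higher numbered 6, 4, 5 and 4 in the same order (background 38.0%, 38.2%, 34.5% and 33.0%).

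The median log2 difference of the 31 members, clones minus controls, was -0.12, against -0.0056 over all tested genes. With quantile normalization it became -0.041, against 0.0056 over all tested genes, and with cyclic loess -0.018, against -0.0022. Centring moved all tested genes to a median of -0.094 and the members to -0.21. It was -0.19 without untransfected and -0.042 without mock. The half-width of limma's 95% interval ran from 0.255 to 0.540 on the log2 scale over the members. With 4 arrays, a difference smaller than its gene's half-width does not reach an unadjusted p of 0.05. At an adjusted p of 0.05 the limit is larger. NAMPT, UTP20 and PPAN exceeded their half-widths, and their adjusted p in limma was 0.290 to 0.324. Each line was sampled once, so the p-values rest on a spread in which lines, RNA samples and arrays are mixed. limma also moderates that spread with the spread of all tested genes.

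**Figure D1:**
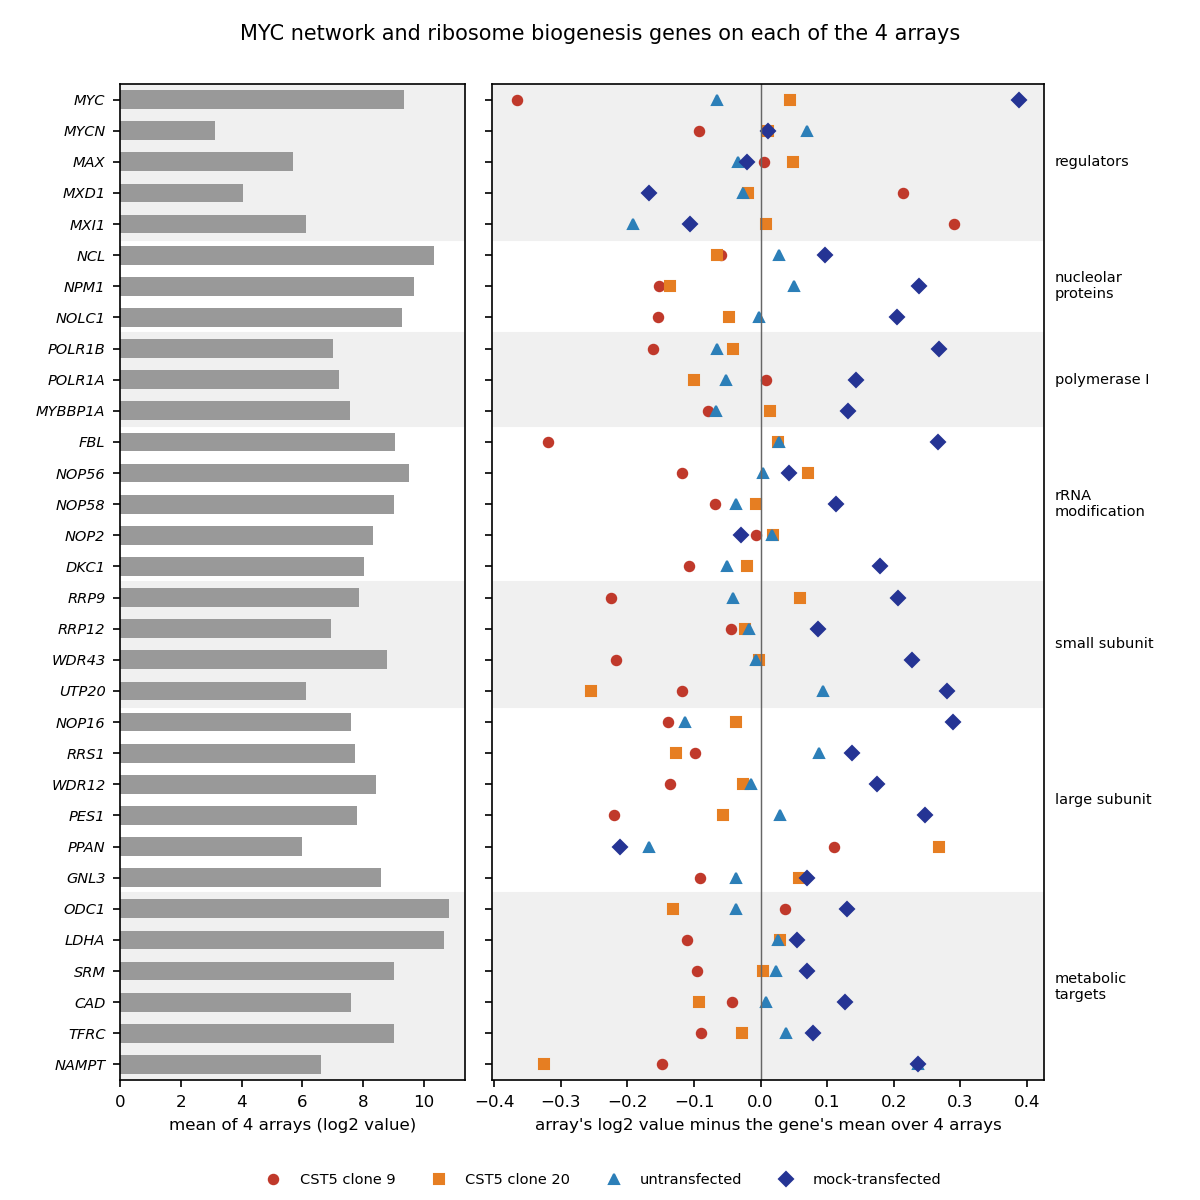
The left panel plots each gene's mean log2 value over the 4 arrays, and the right panel each array's log2 value minus that mean, with genes grouped by role. Points are single arrays. Mock (dark diamonds) is the rightmost point for 24 of the 32 genes and clone 9 (red circles) the leftmost for 20.

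The regulators come first. MYC (ENSG00000136997) read 8.98 in clone 9 and 9.39 in clone 20 on the log2 scale, against 9.28 in untransfected and 9.73 in mock. The groups overlapped: clone 20 lay above untransfected and below mock. The mean difference was -0.32 (SE, standard error, 0.21, limma, adjusted p = 0.520), and it was -0.55 without untransfected and -0.095 without mock. MYC itself was thus 1.37-fold higher in mock than in untransfected cells, 2 lines without the transgene, and 1.33-fold higher in clone 20 than in clone 9.

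MAX (ENSG00000125952), the shared partner, had log2 values of 5.71 and 5.76 in clones 9 and 20, against 5.67 in untransfected and 5.69 in mock. Its difference of 0.054 (SE 0.10, limma, adjusted p = 0.824) turned to -0.034 after centring. MXI1 (ENSG00000119950), a competitor of MYC for MAX, read 6.42 in clone 9 and 6.13 in clone 20, compared with 5.93 in untransfected and 6.02 in mock. Both clones lay above both controls, by 0.11 at the least, with a mean difference of 0.30 (SE 0.14, limma, unadjusted p = 0.0756, adjusted p = 0.404). That difference was 0.16 without clone 9 and 0.44 without clone 20 (unadjusted p in limma 0.243 and 0.0178). MXD1 (ENSG00000059728), which acts in the same way as MXI1, had 4.27 and 4.04 in clones 9 and 20, against 4.03 in untransfected and 3.89 in mock. Clone 20 and untransfected differed by 0.0081, with clone 9 above them and mock below. The mean difference of MXD1 was 0.19 (SE 0.13, limma, adjusted p = 0.523), and the median of all tested genes in its level class was 0.11.

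MYCN (ENSG00000134323), the paralogue of MYC best known from neuroblastoma, was the member that did not pass the filter. It read 3.02 and 3.13 in clones 9 and 20, against 3.18 in untransfected and 3.13 in mock, all below the 40th percentile of their own array. Signal over background was not given, so MYCN has no call here.

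Canonical E-boxes were then looked up in the promoters, because CACGTG is the motif that MYC and MAX dimers bind. RefSeq promoter windows (GRCh38.p14, 250 bases before to 50 after a transcript start) were found by symbol for 27 of the 32 members, some with several starts. CACGTG equals its own reverse complement, so 1 strand was read. It stood in at least 1 window of 11 of the 27 members (40.7%), against 8.77% of all 27305 genes of that table and 10.9% of its 15843 protein-coding genes. With the motif CACGCG, the motif CATGTG and the motif CATGCG added on both strands, 17 of the 27 (63.0%) matched, against 39.8% of protein-coding genes. A match describes letters in the window and not binding. The genes were chosen as members of a network that MYC drives, and this count does not bear on the CST5 lines.

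The stretches below are shown because these 5 genes had the lowest differences among the 11 with a motif, together with ODC1, which like LDHA had a pair. The E-box is in capitals, 5′ to 3′ on the strand of the gene, and positions count from 0 at the start base.
UTP20 (chr12:101280083-101280112, plus strand, E-box first base at -10): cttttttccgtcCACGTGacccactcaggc
FBL (chr19:39846356-39846385, minus strand, at 6): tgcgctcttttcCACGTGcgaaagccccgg
PES1 (chr22:30591880-30591909, minus strand, at 13): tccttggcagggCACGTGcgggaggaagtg
WDR43 (chr2:28894658-28894687, plus strand, at 3): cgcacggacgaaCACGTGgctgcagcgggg
RRP9 (chr3:51941892-51941921, minus strand, at -5): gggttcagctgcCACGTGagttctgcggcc
ODC1, upstream motif (chr2:10448024-10448053, minus strand, at -29): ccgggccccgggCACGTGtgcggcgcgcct
ODC1, downstream motif (chr2:10447990-10448019, minus strand, at 5): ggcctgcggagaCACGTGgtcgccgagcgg

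The other 5 genes with a motif were GNL3, LDHA, MYBBP1A, NOP2 and SRM. The median log2 difference, clones minus controls, was -0.094 over the 11 members with a motif, from -0.37 to 0.011. It was -0.12 over the 15 tested members with a window and no CACGTG, from -0.47 to 0.38. Of the 3 members at an unadjusted p under 0.05, UTP20 had a motif in its window, whereas NAMPT and PPAN had none.

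**Figure D2:**
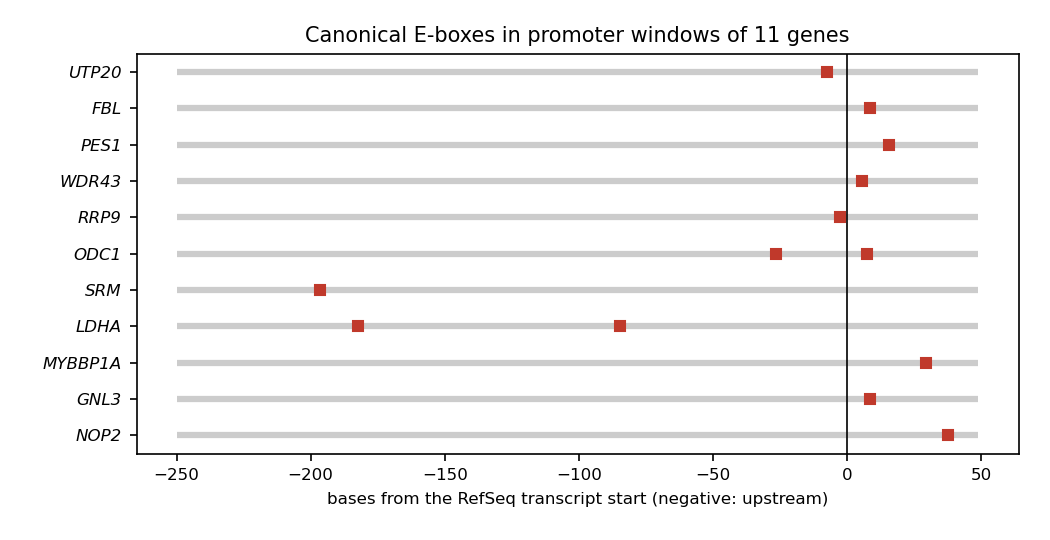
Grey bars are the promoter windows of the 11 members with a canonical E-box, ordered from the lowest difference (UTP20) to the highest (NOP2), and red squares are motif centres in bases from the transcript start. In 9 genes a motif begins within 35 bases of the start, while those of SRM and LDHA lie further upstream.

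The nucleolar proteins NCL, NPM1 and NOLC1 form a role of 3, and all 3 lay lower in both clones than in both controls. NPM1 (ENSG00000181163), nucleophosmin, a chaperone of ribosomal proteins, read 9.53 in clone 9 and 9.55 in clone 20 on the log2 scale, against 9.73 in untransfected and 9.92 in mock. The clones were close together and the controls stood above them, with a mean difference of -0.29 (SE 0.12, limma, unadjusted p = 0.0523, adjusted p = 0.372). Over the other scalings, filters and priors and with 1 array left out, the unadjusted p of NPM1 ran from 0.0219 (intensity trend in eBayes) to 0.264 (without mock). It has 50 pseudogenes by name in RefSeq, and whether the array's probes tell them apart was not tested. NCL (ENSG00000115053), nucleolin, read 10.29 and 10.28 in clones 9 and 20, against 10.38 in untransfected and 10.45 in mock. NOLC1 (ENSG00000166197), a shuttling phosphoprotein that carries snoRNP factors, read 9.14 and 9.25 in clones 9 and 20, against 9.29 in untransfected and 9.50 in mock. The differences of NCL and NOLC1 were -0.12 (SE 0.10) and -0.20 (SE 0.12), with adjusted p in limma of 0.593 and 0.492. The median of the role was -0.20, and -0.093 after quantile normalization. It was -0.31 without untransfected and -0.099 without mock, the highest array for each of the 3.

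RNA polymerase I was represented by its largest subunits POLR1A (ENSG00000068654) and POLR1B (ENSG00000125630), and by MYBBP1A (ENSG00000132382), a nucleolar protein that takes part in rRNA transcription and processing. Clones and controls overlapped for all 3. The log2 differences were -0.20 (SE 0.15) for POLR1B, -0.091 (SE 0.12) for POLR1A and -0.065 (SE 0.12) for MYBBP1A. POLR1B read 6.86 and 6.98 in clones 9 and 20, against 6.95 in untransfected and 7.29 in mock, so that mock alone was set apart. The same held for POLR1A and MYBBP1A, where mock read 7.34 and 7.71. Without mock the median of these 3 genes was 0.0064, against -0.091 with all arrays.

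Modification of ribosomal RNA was covered by FBL (ENSG00000105202, fibrillarin, the methyltransferase of box C/D snoRNPs), NOP56 (ENSG00000101361) and NOP58 (ENSG00000055044), which are its core partners, DKC1 (ENSG00000130826, dyskerin, the pseudouridine synthase) and NOP2 (ENSG00000111641, a methyltransferase of large-subunit rRNA). FBL read 8.73 in clone 9 and 9.08 in clone 20, compared with 9.08 in untransfected and 9.32 in mock. Clone 20 and untransfected were only 0.0020 apart, so the difference of -0.29 (SE 0.16, limma, adjusted p = 0.464) came from clone 9 at the low end and mock at the high end. NOP56, NOP58, DKC1 and NOP2 overlapped between the groups, with differences of -0.047, -0.076, -0.13 and 0.011. The median of the role was -0.076, but 0.040 after quantile normalization and 0.029 after cyclic loess. It was -0.15 without untransfected and -0.014 without mock.

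The small-subunit factors were UTP20, WDR43, RRP9 and RRP12. UTP20 (ENSG00000120800), a large component of the small-subunit processome, read 6.02 in clone 9 and 5.88 in clone 20 on the log2 scale, against 6.23 in untransfected and 6.42 in mock. Each clone was lower than each control, by 0.21 at the least. The mean difference was -0.37 (SE 0.12, limma, unadjusted p = 0.0267, adjusted p = 0.324), a 1.30-fold lower value with a 95% interval of -0.68 to -0.063 on the log2 scale. The unadjusted p was 0.0848 without clone 20 and 0.158 without mock, where the differences were -0.31 and -0.28.

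WDR43 (ENSG00000163811), which joins the processome early, and RRP9 (ENSG00000114767), a partner of the U3 snoRNA, overlapped between the groups. WDR43 read 8.59 and 8.80 in clones 9 and 20, against 8.80 in untransfected and 9.03 in mock, a difference of -0.22 (SE 0.14). RRP9 differed by -0.17 (SE 0.15). RRP12 (ENSG00000052749), needed for export of small subunits, read 6.91 and 6.93 in clones 9 and 20, against 6.94 in untransfected and 7.04 in mock. Its clones lay below its controls by 0.0060 at the least, and its difference of -0.069 was 0.0063 after quantile normalization. The median of the small-subunit role was -0.19, and -0.097 after cyclic loess. It was -0.086 without clone 9, -0.31 without either clone 20 or untransfected, and -0.072 without mock.

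Large-subunit assembly showed the member with the highest difference. PPAN (ENSG00000130810), the human relative of yeast Ssf1, read 6.11 in clone 9 and 6.27 in clone 20 on the log2 scale, against 5.83 in untransfected and 5.79 in mock. Both clones stood above both controls, by 0.28 at the least. The mean difference was 0.38 (SE 0.11, limma, unadjusted p = 0.0179, adjusted p = 0.319), or 1.30-fold, with a 95% interval of 0.096 to 0.66. In RefSeq PPAN overlaps P2RY11, a nucleotide receptor gene, and a PPAN-P2RY11 readthrough, and which of them the probes read was not tested. With any 1 array left out, the unadjusted p of PPAN ran from 0.0136 to 0.0980, and its difference stayed between 0.30 and 0.46.

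PES1 and WDR12, partners in the PeBoW complex that matures large-subunit rRNA, were lower in both clones than in both controls. The same held for 25.1% of all tested genes. PES1 (ENSG00000100029) read 7.57 and 7.74 in clones 9 and 20, against 7.82 in untransfected and 8.04 in mock, a difference of -0.28 (SE 0.13, limma, unadjusted p = 0.0853, adjusted p = 0.414). WDR12 (ENSG00000138442) read 8.29 and 8.40 in clones 9 and 20, against 8.41 in untransfected and 8.60 in mock, a difference of -0.16 (SE 0.12). For WDR12 clone 20 and untransfected were 0.012 apart, so the groups barely separated.

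RRS1 (ENSG00000179041), which brings the 5S particle into the large subunit, had log2 values of 7.64 and 7.61 in clones 9 and 20, against 7.82 in untransfected and 7.87 in mock. Here the lines within each group were close, and the gap between groups was 0.19 at the least. The mean difference was -0.22 (SE 0.10, limma, unadjusted p = 0.0744, adjusted p = 0.402). NOP16 (ENSG00000048162) and GNL3 (ENSG00000163938, nucleostemin, a nucleolar GTPase) overlapped between the groups, with differences of -0.18 and -0.033. GNL3 was at 0.034 after quantile normalization and 0.067 after cyclic loess. The median of this role of 6 was -0.17 and had the same sign under the 3 other scalings, at -0.26 (centring), -0.081 (quantile) and -0.078 (cyclic loess). Without untransfected it was -0.25, and without mock -0.023, with 3 genes lower and 3 higher.

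Among the metabolic targets, NAMPT (ENSG00000105835), the rate-limiting enzyme of NAD salvage, had the largest difference of all 31 members. On the log2 scale it read 6.47 in clone 9 and 6.29 in clone 20, compared with 6.85 in untransfected and 6.85 in mock. Clones and controls were separated by 0.38 at the least. The mean difference was -0.47 (SE 0.11, limma, unadjusted p = 0.00792, adjusted p = 0.290), a 1.39-fold lower value with a 95% interval of -0.76 to -0.19. Its 2 control values were identical, as in 226 of the 24916 rows, so the SD of the controls was 0. Such ties were not particular to the controls: clone 20 and mock were identical in 229 rows. In RefSeq NAMPT has 3 pseudogenes by name and overlaps the lncRNA NAMPT-AS1, and whether the probes tell them apart was not tested. With any 1 array left out the difference stayed between -0.56 and -0.38, and the unadjusted p ran from 0.00620 to 0.0503.

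The other metabolic targets had smaller differences. TFRC (ENSG00000072274), the transferrin receptor, read 8.94 and 9.00 in clones 9 and 20, against 9.07 in untransfected and 9.11 in mock. CAD (ENSG00000084774), the enzyme that starts pyrimidine synthesis, read 7.56 and 7.51 in clones 9 and 20, against 7.61 in untransfected and 7.73 in mock. SRM (ENSG00000116649), spermidine synthase, read 8.94 and 9.03 in clones 9 and 20, against 9.05 in untransfected and 9.10 in mock. These 3 were lower in both clones than in both controls, as were 25.1% of all tested genes. Their differences were -0.12, -0.13 and -0.093, but TFRC was at 0.00040 and SRM at 0.020 after quantile normalization. ODC1 (ENSG00000115758), ornithine decarboxylase, a textbook MYC target, and LDHA (ENSG00000134333), lactate dehydrogenase A, overlapped between the groups. They differed by -0.094 (95% interval -0.41 to 0.22) and -0.082 (95% interval -0.36 to 0.19). All 6 metabolic targets had lower means in the clones as deposited, against 51.1% of all tested genes and 61.3% with the filter at the 60th percentile. After quantile normalization 4 did (48.8% of all tested genes) and after cyclic loess 3 (50.5%). The median of the role was -0.11, and -0.022 less the medians of all tested genes of similar signal level, described below.

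**Figure D3:**
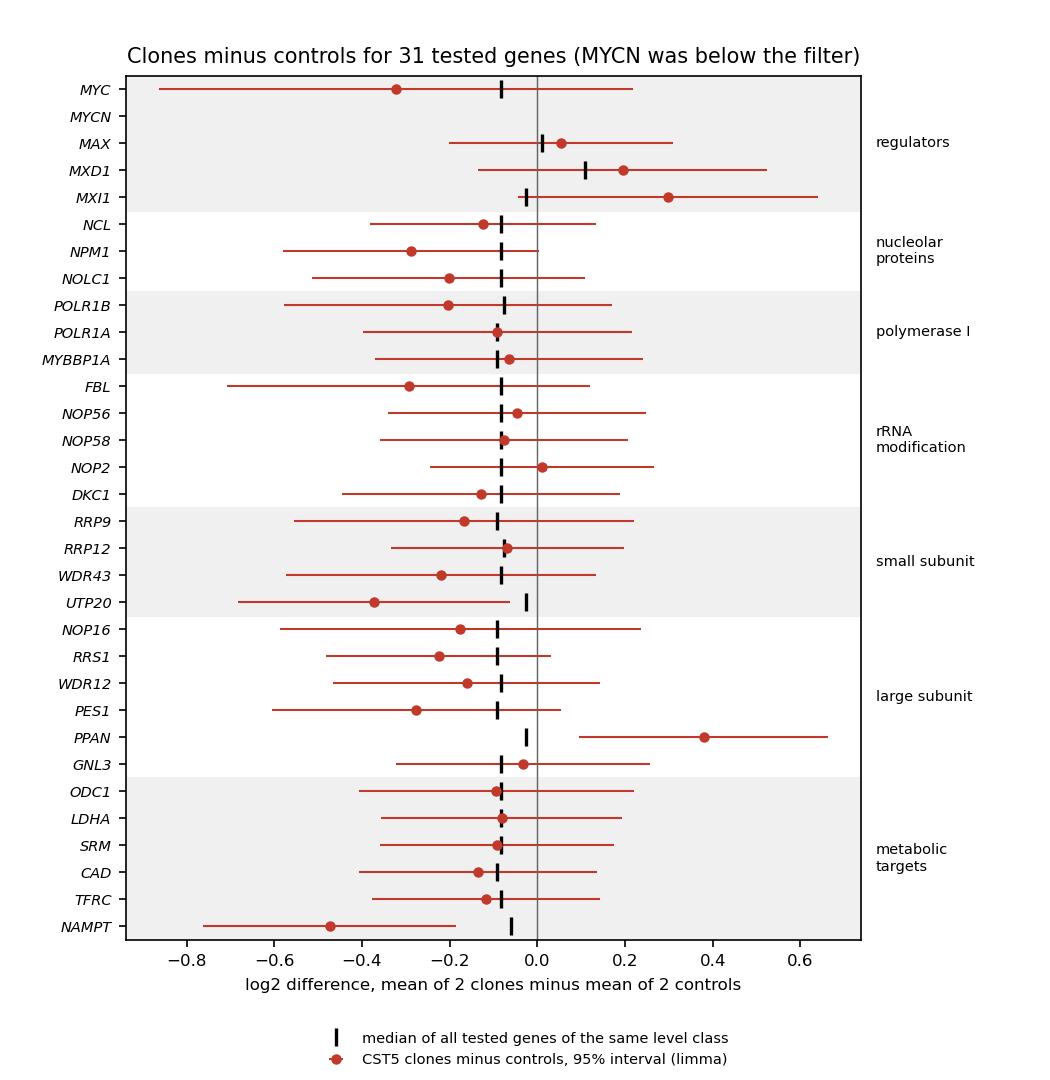
Red points are log2 differences, mean of 2 clones minus mean of 2 controls, with limma's 95% interval, and black bars are the median difference of all tested genes in the same level class. The intervals of NAMPT, UTP20 and PPAN exclude 0 before adjustment. Many of the others sit near the black bar.

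A trend with signal level ran through the arrays and touches these genes directly. All 15131 tested genes were put into 10 equal classes by mean level. The median log2 difference, clones minus controls, was 0.12 in class 1, the dimmest, and -0.083 in class 10, the brightest. Of the 31 members, 16 were in class 10 and 23 in classes 9 and 10. After the median of its class was taken from each member, the median of the members was -0.041, with 19 below and 12 above 0. By role, the median was then -0.12 for the nucleolar proteins, -0.11 for the small subunit and -0.081 for the large subunit. It was -0.022 for the metabolic targets, 0.0011 for the polymerase I genes, 0.0070 for rRNA modification and 0.065 for the regulators. An array-wide trend and a broad change in bright genes cannot be told apart here, since both clones lie on the same side of it. NAMPT, UTP20, PPAN and MXI1, named here for the size of their differences, lay in classes 6 and 7, whose medians were -0.026 and -0.060. The 10th to 90th percentiles of these classes ran from -0.33 to 0.26 and from -0.31 to 0.20. Genes picked for size lie past a class median by the way they were picked, so whether they stand apart from the trend was not tested.

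**Figure D4:**
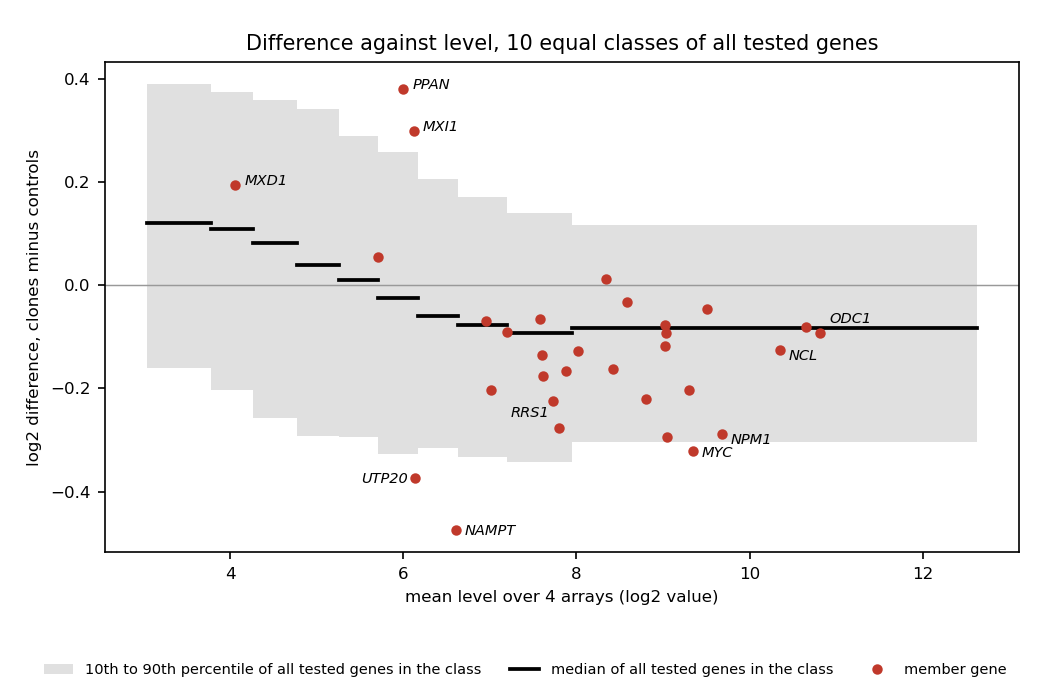
Each red point is a member, by mean log2 level over the 4 arrays and log2 difference, clones minus controls. Black lines are medians and grey bands the 10th to 90th percentiles of all tested genes in 10 level classes. PPAN, MXI1, UTP20, NAMPT and MYC lie outside the band of their class. By definition 10% of the tested genes of each class lie below its band and 10% above, so a place outside it is not a test.

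The single arrays were compared next, with no test, since each line was measured once. The comparisons share arrays and are not independent. Clone 9 differed from untransfected by a median of -0.097 over the 31 members, with 25 lower and 6 higher. Its median difference from mock was -0.18, with 26 lower and 5 higher. For clone 20 the medians were 0.00080 from untransfected, with 15 members lower and 16 higher, and -0.20 from mock, with 25 lower and 6 higher. Of all tested genes, 50.6% were lower in clone 9 than in untransfected and 49.9% lower than in mock. For clone 20 these shares were 51.1% and 51.7%. Less the medians of the members' level classes, described above, clone 9 minus untransfected had a median of -0.053, with 17 lower and 14 higher. Clone 9 minus mock then had one of -0.076, with 26 lower and 5 higher. On the same footing clone 20 minus untransfected had a median of 0.064, with 10 members lower and 21 higher. Clone 20 minus mock had one of -0.088, with 21 lower and 10 higher. Clone 20 minus clone 9 had a median of 0.087, with 22 members higher and 9 lower, where 49.4% of all tested genes were lower.

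The controls differed from each other over these genes by about as much as the clones did from the controls. Mock minus untransfected had a median of 0.15, with 27 members higher, 3 lower and NAMPT equal. Over all tested genes the median was 0.0036, with 48.8% lower. The median of the members' own level classes was 0.041. Mock was the highest of the 4 arrays for 24 of the 31 tested members (77.4%), against 25.9% of all tested genes, and clone 9 the lowest for 19 (61.3%), against 26.4%. By role, mock minus untransfected had a median of 0.21 for the small-subunit factors, 0.20 for the polymerase I genes, 0.19 for the nucleolar proteins, 0.15 for rRNA modification and for the large subunit, and 0.043 for the metabolic targets. With 1 array each, a difference between the lines and one between the RNA samples or arrays cannot be told apart.

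Few members were far apart on any pair of arrays. MYC and FBL were at least 1.5-fold lower in clone 9 than in mock, with log2 differences of -0.75 and -0.59. They were the 2 of 31 members (6.45%) past that size in this pair, against 6.37% of all tested genes. No member reached 1.5-fold in the other 5 pairs. The background there was 5.6% for clone 9 against untransfected, 6.13% for clone 20 against untransfected, 6.89% for clone 20 against mock, 5.84% between the clones (20 over 9) and 1.69% between the controls (mock over untransfected).

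**Figure D5:**
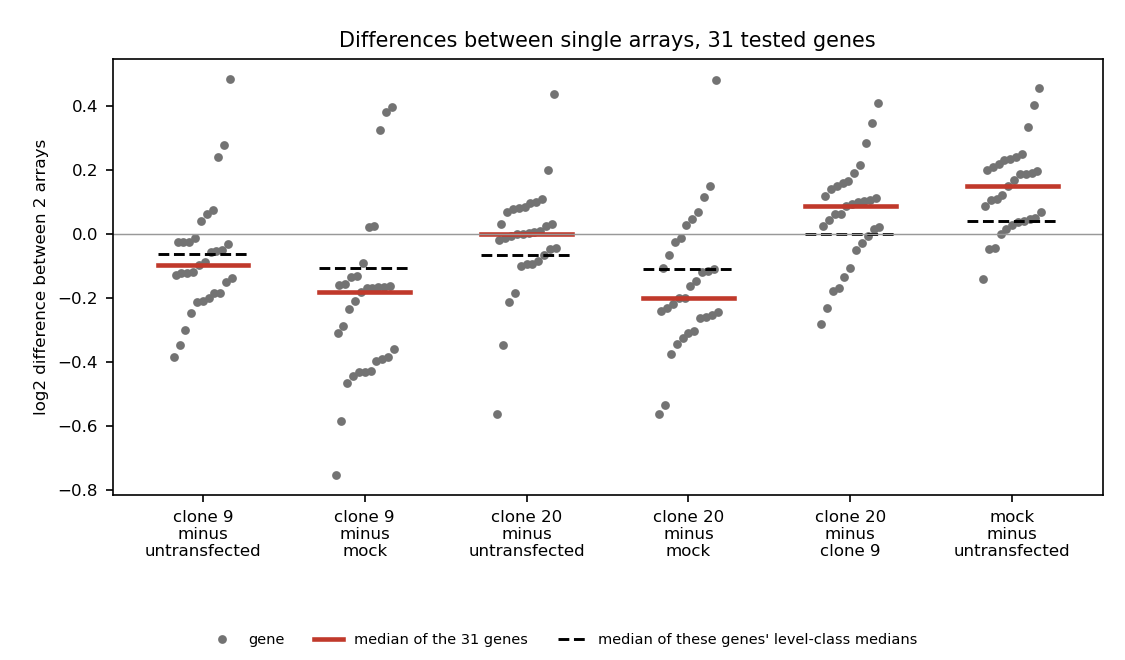
Grey points are the 31 tested members, as log2 differences between 2 arrays, and red bars are their medians. Dashed bars are the medians of the same genes' level-class medians. The red bar is near 0 for clone 20 minus untransfected and at 0.15 for mock minus untransfected.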

How the data were processed

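Total RNA (100 ng per line) was amplified, biotin-labelled and hybridised to Affymetrix GeneChip arrays, per the labels' protocols. The authors deposited 1 table of 24916 Ensembl genes by 4 arrays, with values read here as log2 because of their range, 1.03 to 12.7. Neither the log base, the array model nor how signals were corrected, summarised and normalized could be read from the sources used here. Array medians were 4.09 to 4.21. At equal rank, array values were within 0.222 of each other. Columns were mapped to samples by the header, and 0 were left over.

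A gene was tested if it exceeded the 40th percentile of its array on 2 or more of the 4 arrays, which 15131 did. Clones were compared with controls in limma 3.58.1 under R 4.3.3, by lmFit then eBayes on 2 residual degrees of freedom. P-values were Benjamini-Hochberg adjusted across the 15131 genes. The script was tested on simulated data. Splitting 2 against 2 arrays allows no permutation test at 0.05. Every member is named; values on each array are given for the regulators and for up to 14 other members whose groups did not overlap, and for a few more. Role names are from textbook knowledge. The members, roles and lists were chosen with earlier results of these data known. Symbols come from the list of members. The reference gene table paired 0 of the file's identifiers with symbols, so other pathway genes, cell type markers and CST5 itself were not analysed here. Promoter windows are RefSeq's. Alternatives were other scalings, filters and priors, and leaving out each array. Figures used matplotlib 3.10.9.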

Additional observations from a re-analysis of the deposited data

How the results depend on the processing

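With any 1 array left out, the lone array of an arm takes its spread from the other arm. The 2 genes of the whole table past limma's adjusted threshold, neither a member, were then 0 to 0, and 2 passed under every scaling, filter and prior tried. No member passed the adjusted threshold under any of these, and the smallest adjusted p was 0.204, without clone 9. Members lower at an unadjusted p under 0.05 in limma numbered 2 as deposited (6.62% of all tested genes) and 5 after centring (13.02%). They numbered 4 with an intensity trend in eBayes (7.54%), 3 with no filter (4.74%) and 3 with the filter at the 60th percentile (9.06%). Members higher numbered 1 under every scaling, filter and prior, against 3.46% to 6.99% of all tested genes. With either control left out fewer members passed, and so did a smaller share of all tested genes. Members lower without overlap, 13 as deposited, numbered 23 (centring, background 39.4%), 6 (quantile normalization, 21.4%) and 5 (cyclic loess, 22.7%). With an array left out they numbered 13 to 25 (35.0% to 41.8%). Members higher without overlap, 4 as deposited, numbered 1 after centring (13.7%) and 4 to 6 with an array left out (33.0% to 38.2%). The median of the members, -0.12, was -0.21 with centring, -0.041 with quantile normalization, -0.018 with cyclic loess and -0.041 less the level-class medians; for clone 20 minus untransfected less those medians it was 0.064. These last 2 were chosen after seeing the data. So were the other clone-to-control medians less the level-class medians, and the role medians under alternatives other than quantile normalization.

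Role medians after centring were 0.036 (the regulators MYC, MAX, MXI1 and MXD1), -0.29 (nucleolar), -0.16 (rRNA modification), -0.26 (large subunit), -0.18 (polymerase I), -0.28 (small subunit) and -0.19 (metabolic). After quantile normalization they were -0.093 (nucleolar), 0.040 (rRNA modification), -0.081 (large subunit) and -0.10 (small subunit), and after cyclic loess -0.095, 0.029, -0.078 and -0.097 in the same order, and 0.00023 for the metabolic targets. With an array left out they ran from -0.31 to -0.099 (nucleolar), -0.15 to -0.014 (rRNA modification), -0.25 to -0.023 (large subunit), -0.19 to 0.0064 (polymerase I) and -0.31 to -0.072 (small subunit).

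Signs that turned after centring were those of MAX (-0.034) and NOP2 (-0.077). After quantile normalization they were NOP56 (0.048), NOP58 (0.040), RRP12 (0.0063), SRM (0.020), GNL3 (0.034), TFRC (0.00040) and MYBBP1A (0.033). After cyclic loess they were NOP56 (0.063), NOP58 (0.029), ODC1 (0.022), LDHA (0.033), SRM (0.013), GNL3 (0.067) and MYBBP1A (0.018). With an array left out, NOP56 ran from -0.14 to 0.048, NOP16 from -0.38 to 0.026, NOP2 from -0.012 to 0.034, POLR1A from -0.19 to 0.0064, GNL3 from -0.11 to 0.042 and MYBBP1A from -0.16 to 0.034. None of these members passed a test, and the cause was not tested. The wider E-boxes matched 17 members against 11. Signal over background was not given, which limits MYCN and MXD1. No paired analysis was possible because no label gives clones and controls common numbers.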
